A study of Mus musculus with 2 samples.

Results

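Secreted and membrane proteins enter the endoplasmic reticulum (ER) during their synthesis, and 44 genes that serve their entry, folding, quality control and the response to misfolding were read here in single cells of the mouse jejunum. The 44 genes were listed by name for these functions and not by a cut on any value measured in these cells. The choice was made with earlier results of these data known. All 44 were found among the 27998 genes of the deposited matrices. They comprised 7 stress sensors and transcription factors, 10 chaperones and cofactors, 4 disulfide isomerases, 8 genes of ER-associated degradation, 7 genes of the translocon and the associated TRAP complex, 3 subunits of signal peptidase and 5 subunits of the oligosaccharyltransferase. Each of the 44 was detected in both libraries.

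The libraries came from jejunal crypts of 2 male mice aged 12 months with a whole-body deletion of miR-375 (375KO), 1 library from each mouse, named replicate 1 and replicate 2. The deletion was made by CRISPR/Cas9 in hybrid FVB and B6 embryos and then backcrossed to B6 albino mice, and the labels give the strain as C57BL6/2J. No library of another genotype was used. Every cell described here lacks miR-375, and an effect of the deletion cannot be told apart in these data. Crypts were isolated and dispersed with dispase before capture in droplets, and the 10x Genomics libraries cover the 3′ ends of polyadenylated RNA.

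The authors kept 2082 and 1193 cells, with medians of 16475 and 15232 UMIs (unique molecular identifiers, each 1 captured RNA molecule) and median mitochondrial percents of 10.2 and 5.55. No barcode was shared between the libraries. The authors' 9 epithelial types were stem, transit-amplifying (TA), enterocyte, goblet progenitor, goblet, secretory progenitor, Paneth, enteroendocrine (EEC) and tuft cells, and the tenth type was intraepithelial lymphocytes (IEL). Of 50 markers listed for these types, 45 were highest in their own type in both libraries, the exceptions being Ascl2 for stem cells, Pcna, Mcm6 and Stmn1 for TA cells and Atoh1 for secretory progenitors. The 44 genes took 401021 of 44017234 UMIs in replicate 1 and 174189 of 22163354 UMIs in replicate 2.

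As background, nascent proteins pass through the Sec61 channel, lose their signal peptide to signal peptidase, receive sugar chains from the oligosaccharyltransferase and are folded by chaperones and disulfide isomerases. Proteins that fail to fold are returned to the cytosol and degraded. Misfolded protein is sensed by IRE1, PERK and ATF6, which act through XBP1, ATF4 and cleaved ATF6 to raise the expression of folding and degradation genes. Goblet cells, which make mucins, and Paneth cells, which make antimicrobial peptides and lysozyme, are the professional secretory cells of the crypt, and IRE1β, encoded by Ern2, is known from the epithelia of the gut and airway.

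The ER stress response element (ERSE) is the best known DNA sequence through which ATF6 and XBP1 act on these genes, and its copies are shown because they were more frequent before these genes than before genes at large. Promoters were taken from RefSeq on GRCm38, from 250 bases before to 50 bases after each gene's start, and 35 of the 44 genes had one. The element, spelled CCAAT, then any 9 bases, then CCACG, was searched on both strands and was found before 9 of the 35 genes (25.7%) and before 37 of 27025 genes of the genome (0.137%). Since the genes were listed in part for their known place in the response to misfolding, these shares are a description and not a test. The 9 genes were Hspa5, Hsp90b1, Dnajc3, Creld2, Calr, Canx, Pdia6, Syvn1 and Derl3, and Hsp90b1 held 2 copies. The copies before Canx, Syvn1 and Derl3 are not printed below. The related ERSE-II, spelled ATTGG, then any 1 base, then CCACG, which shares its last letters with the ERSE, was found before Herpud1 alone among the 35 and before 0.0444% of all genes. Copies are written along the gene's own strand, with the letters that match in capitals, so that a copy on the opposite strand begins with CGTGG:
Hspa5 (chr2:34772013-34772055, plus strand): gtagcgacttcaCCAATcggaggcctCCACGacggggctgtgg
Hsp90b1, first copy (chr10:86705626-86705668, minus strand): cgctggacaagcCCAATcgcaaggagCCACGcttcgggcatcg
Hsp90b1, other copy (chr10:86705521-86705563, minus strand): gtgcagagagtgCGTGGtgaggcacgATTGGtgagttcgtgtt
Calr (chr8:84847063-84847105, minus strand): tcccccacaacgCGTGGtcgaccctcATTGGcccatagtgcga
Creld2 (chr15:88819508-88819550, plus strand): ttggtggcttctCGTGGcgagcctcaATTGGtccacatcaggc
Pdia6 (chr12:17266479-17266521, plus strand): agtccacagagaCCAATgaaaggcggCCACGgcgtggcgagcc
Dnajc3 (chr14:118937815-118937857, plus strand): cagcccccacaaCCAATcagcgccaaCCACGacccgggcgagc
Herpud1 (chr8:94386365-94386399, plus strand): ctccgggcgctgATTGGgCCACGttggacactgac
Counted from the RefSeq start of each gene, the copy of Hspa5 began 65 bases before it and that of Herpud1 52 bases before it. The farthest, the first copy of Hsp90b1, began 212 bases before it. The GENCODE annotation begins Hspa5 at chr2:34771970, so that its copy lies inside the gene by that annotation. Neither TGACGTGG, a letter string known as the unfolded protein response element, nor TGATGNAAT, a string bound by ATF4 with its partners, was found in the 35 windows, and they were found before 0.714% and 1.08% of all genes. Ern2, Atf6, Hyou1, Manf, Derl1, Sec61a1, Ssr2, Spcs3 and Ostc were not in the promoter table.

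Taken as a sum, the 44 genes held the largest share of UMIs in goblet cells. Goblet cells gave 1.90% of their UMIs to these genes in replicate 1 and 1.85% in replicate 2 (mean 1.87% ± 0.033, SD, n = 2 mice). Goblet progenitors followed with 1.19% and 1.21%, and stem cells stood at 0.583% and 0.574%. The shares were 0.742% and 0.685% in TA cells, 0.865% and 0.874% in enterocytes, 0.918% and 0.826% in secretory progenitors, 0.989% and 0.905% in EEC and 0.691% and 0.712% in tuft cells. The 2 values of goblet cells and those of goblet progenitors overlapped with no other epithelial type, whereas enterocytes and secretory progenitors overlapped, as did TA and tuft cells. With 1 library a mouse, no test was made of these sums. Exact binomial 95% intervals, which cover counting error only, were narrow, from 1.88% to 1.91% for goblet cells of replicate 1. Single cells of a type spread around these values, and the quartiles of goblet cells lay at 1.59% and 2.21% in replicate 1 and at 1.48% and 2.17% in replicate 2, against 0.690% and 0.983%, and 0.725% and 0.988%, in enterocytes.

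Paneth cells were lowest by this measure, at 0.275% and 0.177%, and this value depended on the denominator. In Paneth cells 10 genes alone took 82.6% and 81.9% of all UMIs, so that little was left for other genes. When the 20 leading genes of each sum were left out of the denominator, the share in Paneth cells became 2.48% and 1.72%, above every epithelial type but goblet cells (2.78% and 2.63%), and goblet progenitors stood at 1.45% and 1.49%. The scaling factors of edgeR (TMM, which assume that most genes do not differ) act in the same way and were 0.156 and 0.121 for Paneth cells, against 0.952 to 1.59 for the other sums. Median mitochondrial percents were 0.0907 and 0.185 in Paneth cells and 5.78 and 3.05 in goblet cells, and median UMIs per cell were 44684 and 80820 in Paneth cells and 13649 and 15709 in goblet cells. The part of these differences in the results for Paneth cells was not tested.

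**Figure D1:**
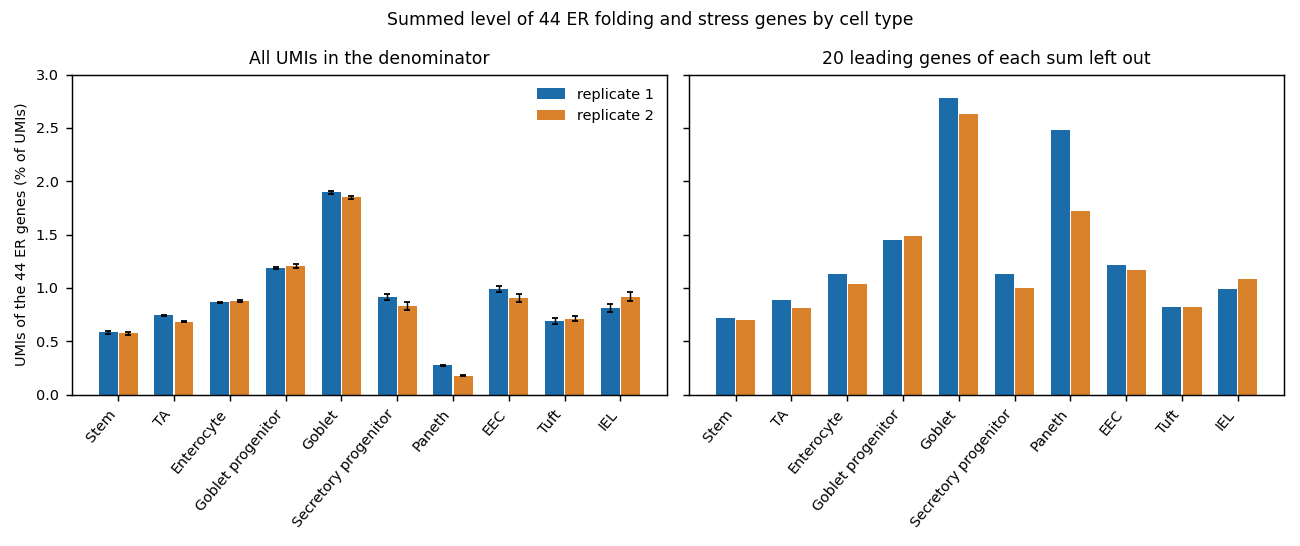
UMIs of the 44 genes as a percent of all UMIs (left) and of UMIs without the 20 leading genes of each sum (right), by annotated cell type, with blue bars for replicate 1 and orange bars for replicate 2 and exact binomial 95% intervals at left. Goblet cells stand highest in both panels (1.90% and 1.85% at left), and Paneth cells move from 0.275% and 0.177% to 2.48% and 1.72%.

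To ask which genes differed between which types, UMIs were summed per mouse and type, and the 18 epithelial sums entered 1 quasi-likelihood model of edgeR that had terms for cell type and for mouse. Of the 44 genes, 43 passed the filter on low counts and 11013 genes were tested in all. Derl3, a derlin of the degradation channel, did not pass. It had 31 and 20 UMIs in the epithelial sums of the 2 libraries, with 13 and 7 of them in goblet progenitors and 1 and 0 in enterocytes. The cell types were named by the authors from the same cells, so that P values describe how far the named classes stand apart, over 2 mice. All 43 genes differed among the 9 types at an adjusted P under 0.05, where 77.3% of all genes tested did.

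Between goblet cells and their progenitors the genes moved almost as 1 block. Of the 43 genes, 40 were higher in goblet cells, none was lower and 3 did not pass the test, and the 3 were Ern1, Atf6 and Canx. Among all genes 29.1% passed this test, 16.0% as higher and 13.2% as lower. The median log2 fold change of the 43 was 1.12, beside 0.0071 over all genes, and all 43 were positive in each mouse. All 4 isomerases, all 7 tested degradation genes, all 7 translocon and TRAP genes, all 3 signal peptidase subunits and all 5 oligosaccharyltransferase subunits were among the 40. Without the mouse term 23 genes were higher and none lower, and with no scaling factors 27 were higher and none lower, with a median of 0.63 beside -0.49 over all genes. Of all genes 9.48% passed without the mouse term and 39.6% with no scaling factors, in either direction.

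Dnajb9, a co-chaperone that binds the IRE1 sensor, had the largest increase over goblet progenitors. It was at 24.6 and 18 UMIs per 1000000 UMIs (CPM) in goblet progenitors of replicates 1 and 2 and at 60.02 and 59.01 CPM in goblet cells. The 2 ranges did not overlap, and the log2 fold change was 1.95 ± 0.22 (SE, adjusted P = 6.54e-08). Next came Ern2 (1.73 ± 0.30), Edem2, a mannosidase-like protein of degradation (1.68 ± 0.18), Pdia6 (1.54 ± 0.17), Creld2 (1.52 ± 0.21) and Pdia3 (1.51 ± 0.15), the last with Pdia6 among the disulfide isomerases. Dissociation response genes moved with the same step: a list of 10 of them summed to 1035 and 811 CPM in goblet progenitors and to 2933 and 1761 CPM in goblet cells, and their part in the result was not tested.

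Goblet cells also stood above enterocytes, the absorptive cells. Of 43 genes 36 were higher in goblet cells, 2 were lower and 5 did not pass, while 43.7% of all genes passed, 19.8% as higher and 23.9% as lower. The median of the 43 was 1.29, beside -0.031 over all genes. Dissociation response genes were at 897 and 518 CPM in enterocytes, below the goblet values given above. Median mitochondrial percents were 13.2 and 7.59 in enterocytes and 5.78 and 3.05 in goblet cells, and a stricter cell filter, which kept 148 of 931 and 307 of 382 enterocytes, gave 36 genes higher and 1 lower. Under that filter 37.0% of all genes passed, in either direction.

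**Figure D2:**
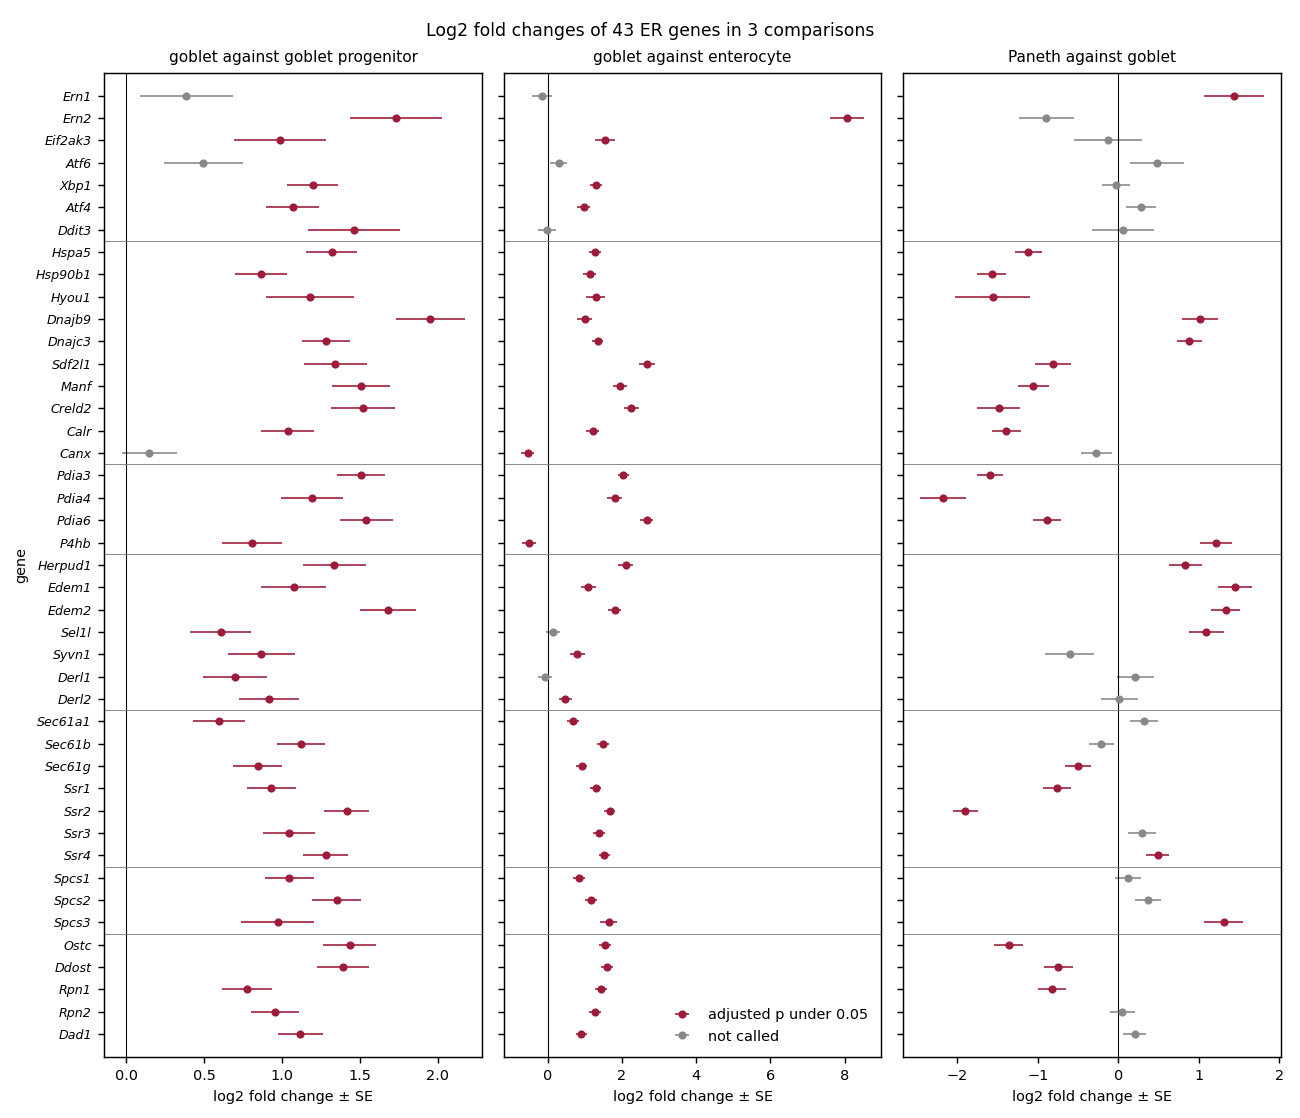
Log2 fold changes with standard errors for 43 genes, ordered by role, in 3 comparisons fitted by edgeR with TMM factors, with red points for an adjusted P under 0.05 and grey points for the rest. Against goblet progenitors 40 points are red and right of 0, against enterocytes 36 are higher and 2 lower, and in Paneth against goblet cells 10 are higher and 16 lower, where all 43 are lower with no scaling factors (86.4% of all genes pass in that fit).

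Among the sensors, Ern2 and Ern1 encode the 2 forms of IRE1, the endonuclease that splices Xbp1. Ern2 was highest in goblet cells in both mice, with and without scaling. It was at 187 and 127 CPM in goblet cells, 73.1 and 59.99 CPM in goblet progenitors and 65.2 and 58.0 CPM in secretory progenitors. Paneth cells held 19.6 and 5.96 CPM without scaling and 126 and 49.3 by TMM-scaled CPM, the latter above the 50.6 and 46.8 of goblet progenitors in each mouse. Enterocytes held 8 and 7 Ern2 UMIs in all, 0.413 and 1.31 CPM, so that goblet and enterocyte values were far apart. The fitted log2 fold change was 8.07 ± 0.46 (adjusted P = 2.13e-10), and its size rests on those few UMIs. EEC had 30.6 and 9.28 CPM from 19 and 2 UMIs, and tuft cells had 9.67 and 25 CPM from 4 and 14 UMIs.

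Ern1, the broadly expressed form, did not follow Ern2. It was at 11.6 and 8.05 CPM in goblet cells and at 12.2 and 11.6 CPM in enterocytes, and these did not pass the test (log2 fold change -0.15 ± 0.27, adjusted P = 0.68). It was lower in tuft cells than in enterocytes (-2.41 ± 0.63, adjusted P = 0.00264), where only 2 and 1 UMIs were counted in tuft cells. In EEC it was at 19.3 and 23.2 CPM, from 12 and 5 UMIs.

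Eif2ak3 encodes PERK, which phosphorylates eIF2α. Its level was 19.6 and 13.9 CPM in goblet cells, 6.09 and 6.36 CPM in enterocytes and 11.9 and 13.2 CPM in goblet progenitors. Goblet cells stood above enterocytes (1.55 ± 0.28, adjusted P = 2.42e-05). In secretory progenitors it had 2 and 0 UMIs, and a count of 0 allows up to 3 counts, or 13.4 CPM.

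Atf6, the sensor that is cut in the Golgi to release a transcription factor, was highest in EEC. It stood at 129 and 55.7 CPM in EEC and at 21.7 and 16.8 CPM in enterocytes, and at no more than 29.9 CPM in any other epithelial sum. The EEC values lay above all of these, with a log2 fold change against enterocytes of 1.75 ± 0.27 (adjusted P = 2.41e-06). In goblet cells Atf6 was at 29.9 and 14.8 CPM and did not pass the test against enterocytes (0.31 ± 0.23, adjusted P = 0.308).

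Xbp1, the transcription factor that spliced RNA encodes, was at 315 and 315 CPM in goblet cells and at 127 and 147 CPM in enterocytes (1.31 ± 0.16, adjusted P = 3.73e-08). Its level was 69.5 and 102 CPM in stem cells, 96.8 and 97.6 CPM in TA cells and 191 and 195 CPM in goblet progenitors. These 3′ counts do not tell spliced from unspliced Xbp1.

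Atf4, which PERK signalling raises at the level of translation, was at 249 and 173 CPM in goblet cells and at 118 and 112 CPM in enterocytes (0.97 ± 0.17, adjusted P = 1.42e-05). Ddit3 encodes CHOP, a factor tied to cell death under lasting stress, and it went another way. It was at 24.9 and 19.7 CPM in goblet cells and 27.1 and 20.6 CPM in enterocytes, which overlap (-0.02 ± 0.24, adjusted P = 0.961). Against their progenitors, both goblet cells (1.46 ± 0.29, adjusted P = 0.000271) and enterocytes (1.78 ± 0.24 against TA cells, adjusted P = 2.8e-07) were higher in Ddit3. EEC were at 29.0 and 60.3 CPM from 18 and 13 UMIs, the highest epithelial values without scaling, and did not pass against enterocytes (0.09 ± 0.35, adjusted P = 0.874). By TMM-scaled CPM enterocytes were highest in replicate 1.

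**Figure D3:**
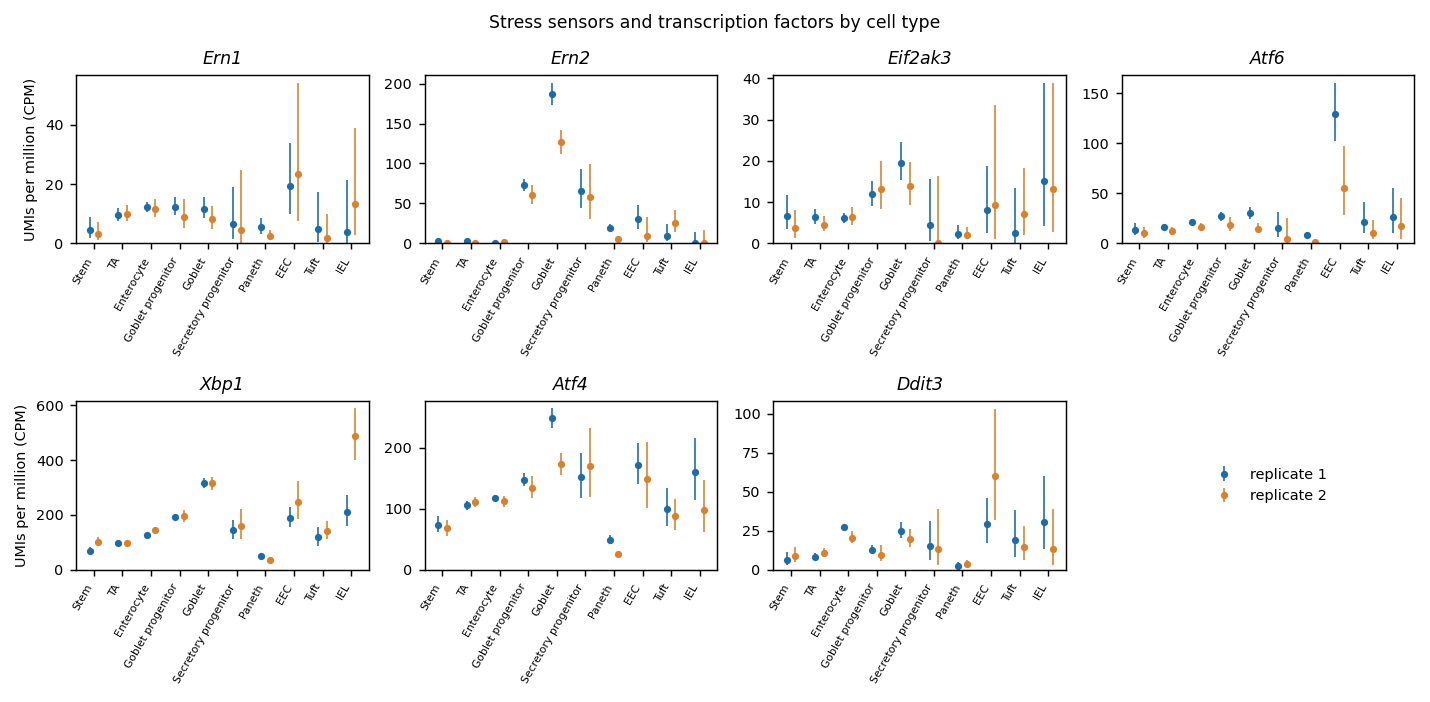
Level of 7 sensor and transcription factor genes in UMIs per 1000000 UMIs (linear axes from 0) in each annotated cell type, with blue points for replicate 1, orange points for replicate 2 and exact Poisson 95% intervals for counting error. Ern2 peaks in goblet cells at 187 and 127 CPM, Atf6 in EEC at 129 and 55.7 CPM, and Xbp1 in goblet cells at 315 CPM among the epithelial types, below the lymphocytes of replicate 2.

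Chaperones and cofactors were mostly higher in goblet cells than in enterocytes, 9 of 10 as higher and 1 as lower. Hspa5 encodes BiP, the ER member of the HSP70 family that also holds the sensors inactive. It was at 1200 and 812 CPM in goblet cells, 503 and 374 CPM in enterocytes, 625 and 490 CPM in goblet progenitors and 224 and 186 CPM in stem cells. Goblet values lay above all others, with a log2 fold change against enterocytes of 1.29 ± 0.16 (adjusted P = 6.15e-08). Sdf2l1, a partner of BiP, had the largest difference of this group, at 226 and 369 CPM in goblet cells against 43.1 and 50.5 CPM in enterocytes (2.68 ± 0.21, adjusted P = 1.77e-11). Creld2, an ER stress protein with isomerase-like motifs, was at 114 and 217 CPM against 28.5 and 43.9 CPM (2.26 ± 0.21, adjusted P = 1.06e-10). Hsp90b1, Hyou1, Dnajb9, Dnajc3, Manf and Calr were also higher, with log2 fold changes from 0.997 to 1.96.

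Canx, the membrane-bound lectin chaperone calnexin, was the exception. It was at 377 and 395 CPM in enterocytes and at 256 and 240 CPM in goblet cells (-0.54 ± 0.18, adjusted P = 0.0136), while Calr, its soluble relative calreticulin, was at 722 and 549 CPM in enterocytes and 1495 and 1245 CPM in goblet cells. The call for Canx was lost without the mouse term (adjusted P = 0.198) and with cells thinned to 5000 UMIs (adjusted P = 0.168).

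Of the 4 disulfide isomerases, 3 were higher in goblet cells than in enterocytes. Pdia6 was at 872 and 813 CPM in goblet cells and at 148 and 136 CPM in enterocytes (2.67 ± 0.18, adjusted P = 5.85e-14). Pdia3, which works with calnexin and calreticulin on glycoproteins, was at 913 and 687 CPM against 249 and 171 CPM (2.04 ± 0.16, adjusted P = 1.63e-12). Pdia4 was higher as well (1.80 ± 0.19). P4hb, which encodes protein disulfide isomerase itself and is also a subunit of the microsomal triglyceride transfer protein complex of absorptive cells, went another way. It was at 953 and 862 CPM in enterocytes, 564 and 637 CPM in goblet cells, 278 and 289 CPM in TA cells and 128 and 178 CPM in stem cells, with no overlap among these 4 types. Paneth cells held 232 and 165 CPM without scaling and, at 1493 and 1364 against 943 and 803 in enterocytes, the highest values by TMM-scaled CPM. Enterocytes stood above TA cells (2.09 ± 0.20, adjusted P = 2.37e-09), tuft cells (-2.94 ± 0.22 for tuft against enterocyte, adjusted P = 7.71e-11) and EEC (-2.62 ± 0.22, adjusted P = 6.24e-10). Against goblet cells the difference was small (-0.51 ± 0.19, adjusted P = 0.0348). It passed with RLE factors and with no scaling factors, failed under the other tested alternatives and turned to 0.14 under a stricter cell filter.

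In ER-associated degradation, 5 of 7 tested genes were higher in goblet cells than in enterocytes, and Sel1l and Derl1 did not pass. Herpud1, which carries the ERSE-II shown above and helps to assemble the degradation complex, was at 268 and 264 CPM in goblet cells and 71.7 and 59.6 CPM in enterocytes (2.11 ± 0.20, adjusted P = 9.56e-10). Herpud1 was higher than in enterocytes in tuft cells too, at 201 and 213 CPM, and in EEC, at 147 and 279 CPM. Edem1, which hands misfolded glycoproteins to degradation, had another pattern, at 78.5 and 109 CPM in goblet cells, 42.96 and 48.4 CPM in enterocytes, 14.5 and 4.64 CPM in EEC and 7.25 and 10.7 CPM in tuft cells. The low Edem1 values rest on 9 and 1 UMIs in EEC and on 3 and 6 UMIs in tuft cells. Syvn1 encodes the ubiquitin ligase HRD1 and Sel1l its partner, and both were lower in tuft cells than in enterocytes, at -2.62 ± 0.47 and -1.53 ± 0.28. Syvn1 had only 3 and 3 UMIs in tuft cells. Derl2 was modestly higher in goblet cells (0.48 ± 0.18).

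The genes of protein entry and early modification were higher in goblet cells without exception. All 7 translocon and TRAP genes, all 3 signal peptidase subunits and all 5 oligosaccharyltransferase subunits passed the test against enterocytes, with log2 fold changes of 0.69 to 1.67, 0.85 to 1.65 and 0.91 to 1.60. Sec61b, a small subunit of the channel, was at 1363 and 1791 CPM in goblet cells and 461 and 774 CPM in enterocytes. Ssr4, a TRAP subunit, was at 1464 and 1080 CPM against 521 and 423 CPM. Ostc, a subunit of the oligosaccharyltransferase that acts beside the channel, was at 803 and 582 CPM against 290 and 217 CPM, and it was lower in tuft cells than in enterocytes (-1.62 ± 0.20, adjusted P = 8.1e-08). Within each library, goblet cells stood above enterocytes in all 15 of these genes.

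**Figure D4:**
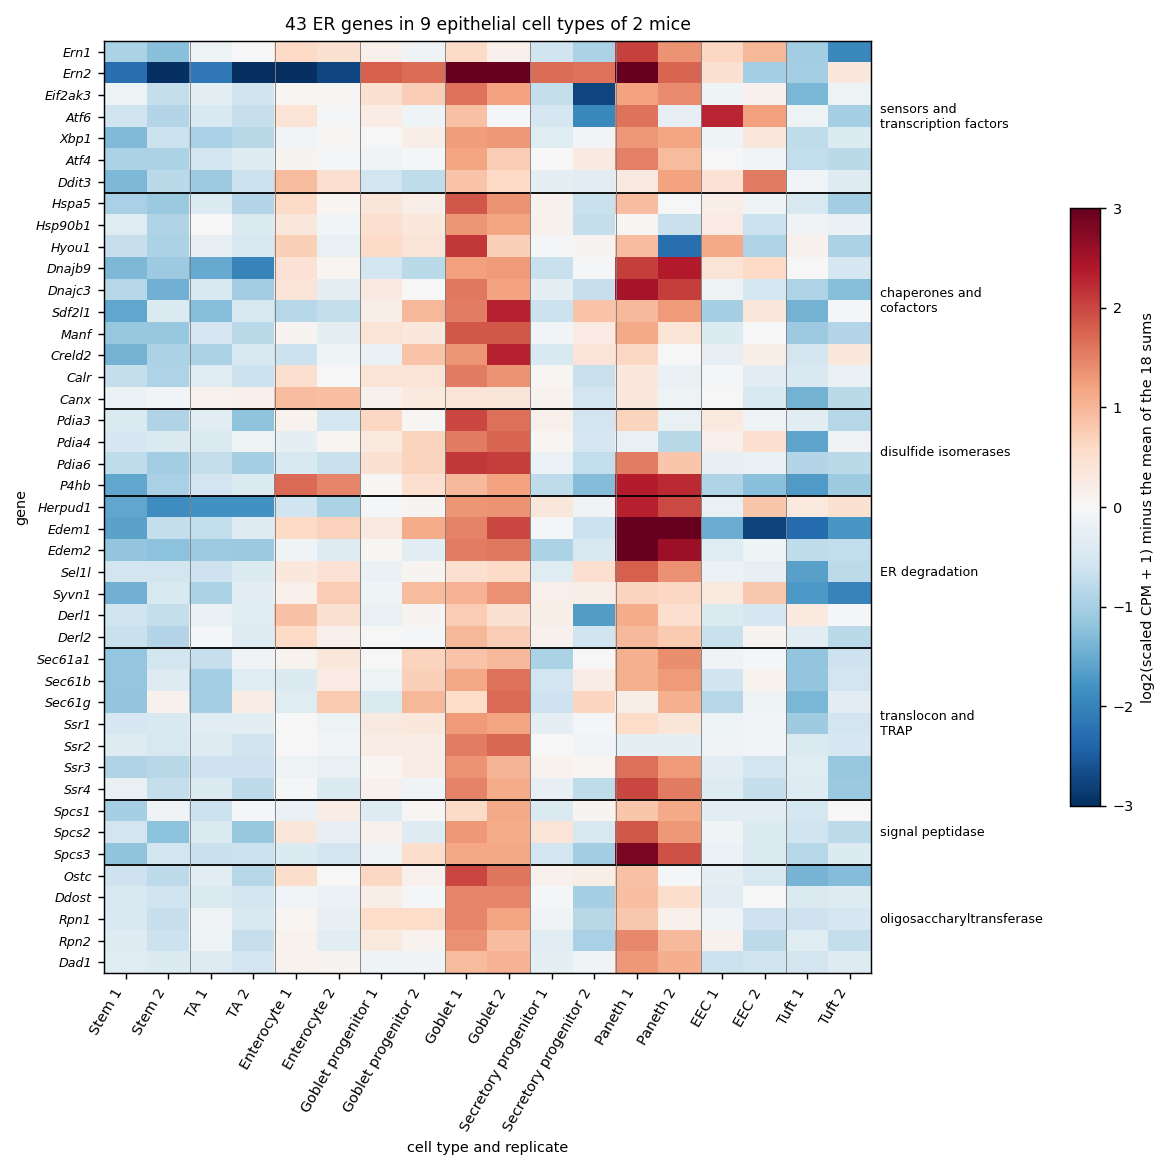
Level of the 43 tested genes in the 18 epithelial sums, as log2(TMM-scaled CPM + 1) minus the mean of each gene, with rows grouped by role and columns by cell type and replicate. Goblet and Paneth columns are the reddest by this scaling (without it no gene is highest in Paneth cells), stem and tuft columns the bluest, and Ern2, Atf6, P4hb and Edem1 stand out from their groups.

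By TMM-scaled CPM, 19 of the 43 genes were highest in goblet cells in both mice, 17 in Paneth cells, 1 in enterocytes and 1 in EEC, and 5 differed between the mice. By CPM without scaling, 32 of 44 were highest in goblet cells, 4 in EEC, 2 in enterocytes and none in Paneth cells, and 6 differed. Stem and tuft cells were lowest in both mice in 9 genes each by scaled CPM, and for 23 of the 43 genes the lowest type differed between the mice.

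Whether Paneth cells stood above enterocytes depended on the scaling. With TMM factors, 30 of 43 genes were higher in Paneth cells, 2 were lower and 11 did not pass, where 39.4% of all genes passed, 18.1% as higher and 21.3% as lower. The median was 0.97, beside -0.075 over all genes. With no scaling factors 87.4% of all genes passed, in either direction. Of the 43 in that fit 1 gene, Ern2, was higher and 38 were lower, and the median was -1.95 beside -2.91 over all genes. Since a scaling factor moves all genes of a sum alike, the gap between these medians is not a second piece of evidence. Thinned to 5000 UMIs a cell, 17 were higher and 2 lower. In that fit 19.7% of all genes passed, and the median over all genes was -0.725. By TMM scaling the leading genes after Ern2 were Edem2 (3.15 ± 0.19), Spcs3, a signal peptidase subunit (2.96 ± 0.25), Herpud1 (2.94 ± 0.21), Edem1 (2.55 ± 0.21) and Dnajc3, an inhibitor of PERK and BiP co-chaperone (2.23 ± 0.16). Without scaling Dnajc3 was at 88.8 and 51.8 CPM in Paneth cells and 134 and 89.0 CPM in enterocytes, and Edem2 was at 68.6 and 35.7 CPM against 46.0 and 39.6 CPM. Canx (-0.81 ± 0.19) and Hsp90b1 (-0.44 ± 0.18) were lower with TMM factors and with none. The call for Hsp90b1 was lost with RLE factors (adjusted P = 0.0936), DESeq2 (0.123), no mouse term (0.44) and lymphocytes included (0.0689), and that for Canx with thinned cells (0.0545).

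Paneth cells were also set against goblet cells, the other professional secretory type. With TMM factors 10 of 43 were higher in Paneth cells, 16 were lower and 17 did not pass, where 18.8% of all genes passed, 8.91% as higher and 9.9% as lower. The median of the 43 was -0.030, beside -0.019 over all genes. Chaperones counted 2 higher and 7 lower of 10, isomerases 1 higher and 3 lower of 4 and oligosaccharyltransferase subunits 0 higher and 3 lower of 5, while degradation genes counted 4 higher and 0 lower of 7. Sensors and transcription factors counted 1 higher and 0 lower of 7, translocon and TRAP genes 1 higher and 3 lower of 7 and signal peptidase 1 higher and 0 lower of 3. The difference between roles was not tested. With no scaling factors all 43 were lower in Paneth cells, with a median of -2.84 beside -2.79 over all genes. In that fit 86.4% of all genes passed, in either direction.

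The genes lowest in Paneth relative to goblet cells were Pdia4 (-2.18 ± 0.28), Ssr2, a TRAP subunit (-1.90 ± 0.16), Pdia3 (-1.60 ± 0.16), Hsp90b1, the ER form of HSP90 (-1.57 ± 0.18), Hyou1 (-1.56 ± 0.46) and Creld2 (-1.49 ± 0.26). Hyou1 rests on 14 and 1 UMIs in Paneth cells, and its call was lost without the mouse term (adjusted P = 0.225) and with thinned cells (-0.83, adjusted P = 0.637). Ssr2 was at 33.9 and 26.4 CPM in Paneth cells and at 752 and 826 CPM in goblet cells without scaling, whereas another TRAP subunit, Ssr4, was at 329 and 188 CPM against 1464 and 1080 CPM. The genes highest relative to goblet cells were Edem1 (1.44 ± 0.21), Ern1 (1.44 ± 0.37), Edem2 (1.33 ± 0.18), Spcs3 (1.31 ± 0.24), P4hb (1.21 ± 0.20) and Sel1l (1.09 ± 0.21). Without scaling these 6 had log2 fold changes of -1.37, -1.36, -1.47, -1.49, -1.60 and -1.72, and Pdia4 and Ssr2 had -4.99 and -4.73. Thinned to 5000 UMIs a cell, 1 gene was higher and 17 were lower. In that fit 9.62% of all genes passed, and the median over all genes was -0.739. Hspa5 was lower in Paneth cells by this scaling (-1.12 ± 0.17, adjusted P = 8.97e-06), and Xbp1 (-0.03 ± 0.17, adjusted P = 0.944) and Atf4 (0.28 ± 0.18, adjusted P = 0.319) did not pass.

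Of the 8 tested genes with an ERSE, 5 were lower in Paneth than in goblet cells with TMM factors (Hspa5, Hsp90b1, Creld2, Calr and Pdia6). Dnajc3 was higher and Canx and Syvn1 did not pass, and the median of the 8 was -1.0. With no scaling factors all tested genes of the list were lower in Paneth cells, with or without an ERSE, where 86.4% of all genes passed. Of the other 26 tested genes with a promoter in the table, 8 were higher, 7 lower and 11 did not pass, with a median of 0.09. These counts are a description, since the difference between the sets was not tested and 6 of the 8 are chaperones or cofactors.

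EEC and tuft cells did not share the goblet pattern. In EEC 3 of 43 genes were higher than in enterocytes, 9 were lower and 31 did not pass, where 41.5% of all genes passed, 19.9% as higher and 21.6% as lower, and the median was -0.13 beside -0.0010 over all genes. The 3 were Ern2, Atf6 and Herpud1 (1.02 ± 0.24). The lower ones were led by P4hb, Edem1 (-2.44 ± 0.42), Derl1 (-1.204 ± 0.264), Canx (-1.07 ± 0.20), Derl2 (-0.87 ± 0.27) and Dad1, a subunit of the oligosaccharyltransferase (-0.71 ± 0.15). With no scaling factors 11 were higher and 2 lower, and the median of 0.42 lay beside 0.56 over all genes. In that fit 45.3% of all genes passed. EEC gave 54 and 20 cells, with dissociation response genes at 2660 and 2131 CPM, close to goblet cells. Lymphocyte markers summed to 3.22 CPM in the EEC sum of replicate 1 and to 1258 CPM, from 271 UMIs, in that of replicate 2. Their part in the EEC values was not tested.

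In tuft cells 2 genes were higher than in enterocytes, Ern2 and Herpud1 (1.15 ± 0.22), 24 were lower and 17 did not pass. Among all genes 38.4% passed, 17.3% as higher and 21.1% as lower, and the median was -0.56 for the 43 and -0.040 for all genes. All 7 translocon and TRAP genes were lower, as were Hspa5 (-1.08 ± 0.17), Syvn1, Edem1 (-2.83 ± 0.42) and Canx (-1.97 ± 0.21). With no scaling factors 11 were lower and 3 higher, and the median of -0.06 lay beside 0.46 over all genes. In that fit 42.4% of all genes passed.

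In the absorptive lineage, 31 of 43 genes were higher in enterocytes than in TA cells, none was lower and 12 did not pass. Among all genes 51.7% passed, 29.1% as higher and 22.6% as lower, and the median was 0.61 beside 0.059. Dnajb9 led (2.12 ± 0.21), at 34.6 and 28.4 CPM in enterocytes and 11.8 and 7.34 CPM in TA cells, before P4hb, Ddit3, Edem1 (1.25 ± 0.20), Syvn1 (1.16 ± 0.20) and Herpud1 (1.09 ± 0.20). All 7 degradation genes were higher, while 2 of 5 oligosaccharyltransferase subunits and 2 of 4 isomerases were. The count depended on the fit, with 9 higher without the mouse term, 13 with no scaling factors and 20 with thinned cells or with no filter on low counts. Of all genes 25.8%, 53.9%, 47.0% and 33.0% passed in these fits, in that order and in either direction. With no scaling factors the median over all genes was -0.35.

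Other genes of the pathway, 62 listed by function and 59 tested, were counted in the same way. They counted 48 higher and 0 lower in goblet cells against goblet progenitors, beside 16.0% and 13.2% of all genes. Against enterocytes 43 were higher and 3 lower in goblet cells, beside 19.8% and 23.9%. For Paneth cells against enterocytes 41 were higher and 3 lower, beside 18.1% and 21.3%. For enterocytes against TA cells 33 were higher and 2 lower, beside 29.1% and 22.6%. In EEC 13 were higher and 12 lower than in enterocytes and in tuft cells 15 and 23, where the 43 counted 3 and 9, and 2 and 24. Of all genes 19.9% were higher and 21.6% lower in EEC, and 17.3% and 21.1% in tuft cells. In Paneth against goblet cells 14 were higher and 11 lower, where the 43 counted 10 and 16, beside 8.91% and 9.9% of all genes. All these counts used TMM factors, and the other pathway genes were not counted with none. With no scaling factors the median log2 fold change over all genes was -2.91 for Paneth against enterocyte and -2.79 for Paneth against goblet. Creb3l1, a membrane-bound factor of the ATF6 kind, was at 226 and 265 CPM in goblet cells and 3.98 and 5.24 CPM in enterocytes, whereas its relative Creb3l3, known from liver and intestine, was at 3.97 and 4.47 CPM in goblet cells and 247 and 157 CPM in enterocytes. Txndc5, a thioredoxin-like isomerase, was at 1004 and 930 CPM in goblet cells and 23.8 and 25.4 CPM in enterocytes. Agr2, an isomerase needed for mucin folding, had 119247 and 60081 UMIs in goblet cells, and it had 0 UMIs in the stem, TA, enterocyte, EEC and IEL sums of replicate 2, where those of replicate 1 held 90, 815, 46, 1385 and 18. The authors state that free RNA was removed, without naming the tables, so that these 0 counts may be values after removal. No fold of Agr2 is printed here, but Agr2 was among the 59 tested genes and entered the counts above.

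The 43 genes followed 1 pattern to different degrees. Pearson's r between a gene and the mean of the 43 over the 18 sums, on the log2 scale after TMM scaling, ran from 0.45 for Hyou1, 0.49 for Atf6 and 0.50 for Canx to 0.95 for Manf and Xbp1 and 0.96 for Pdia6. The mean includes each gene itself, and the points share libraries and scaling factors. Among genes outside the 44, the highest r were those of Slc39a7, a zinc transporter of the ER (0.98), Kdelr2, a receptor that returns ER proteins from the Golgi (0.97), and Mydgf, a secreted protein that carries an ER retrieval signal (0.97), followed by C1galt1c1, Gorasp2, Prrc1, Tmem214, Cope, Fkbp2 and Plpp5.

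The 2 mice were compared without a test, by mean CPM over the 9 epithelial types. Sec61g, the smallest subunit of the channel, was at 475 CPM in replicate 1 and 1003 CPM in replicate 2, 2.11-fold higher, and higher in replicate 2 in all 9 types (470 and 1113 CPM in enterocytes, 873 and 1857 CPM in goblet cells). No other of the 43 genes was at least 1.5-fold higher in replicate 2 and so in all 9 types, where 3.17% of all genes were. Atf6 (31.4 and 16.1 CPM, 1.94-fold) and Pdia3 (365 and 238 CPM, 1.53-fold) were higher in replicate 1 in all 9 types by that measure, where 7.83% of all genes were. The median ratio of replicate 2 to replicate 1 was 0.892 for the 43 genes and 0.899 for all genes tested. Sdf2l1 (1.81-fold) and Creld2 (1.62-fold) were higher in replicate 2 in 8 of 9 types, and Hyou1 was 2.03-fold higher in replicate 1 in 8 of 9. Median mitochondrial percents of 10.2 and 5.55 also set the libraries apart, and their part was not tested.

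**Figure D5:**
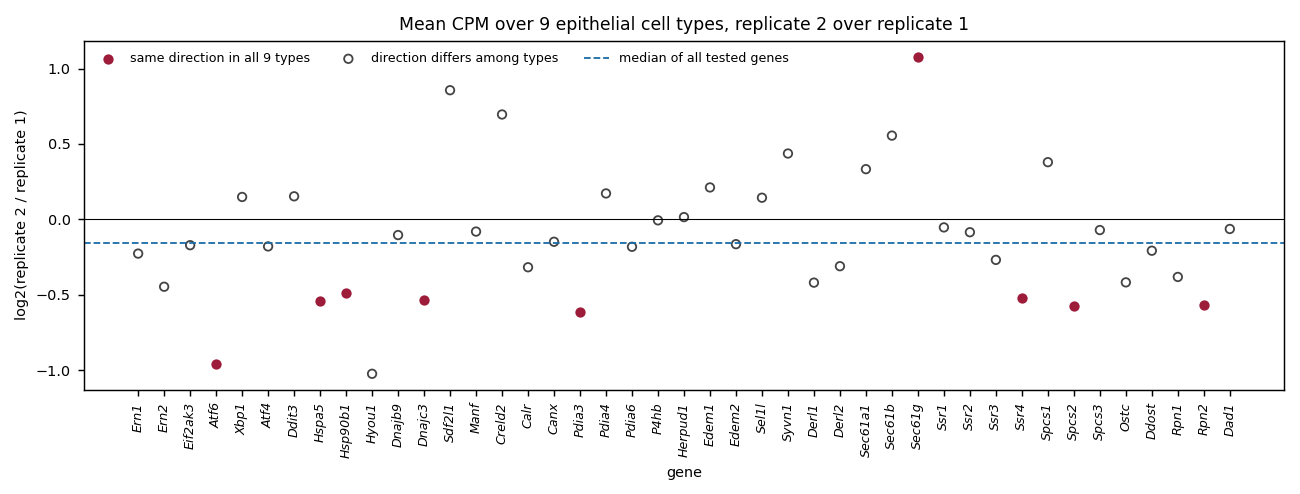
Log2 ratio of mean CPM over the 9 epithelial types, replicate 2 over replicate 1, for the 43 tested genes, with filled points where all 9 types had the same direction and a dashed line at the median of all genes tested. Sec61g lies highest (2.11-fold), and Hyou1 (2.03-fold) and Atf6 (1.94-fold) lie lowest.

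In the lymphocytes of replicate 2 a single cell carried much of the signal. The 18 cells gave 0.918% of their UMIs to the 44 genes, and those of replicate 1, 50 cells, gave 0.813%. One cell of replicate 2 held 995 of the 1223 UMIs of 4 plasma cell markers in this sum and gave 5.26% of its UMIs to the 44 genes. It also held 5 of the 6 Derl3 UMIs and 85 of the 110 Xbp1 UMIs of the lymphocytes of this library. Without it the share was 0.668%. Plasma cell markers were at no more than 14.3 CPM in any epithelial sum.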

How the data were processed

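Single-cell RNA sequencing was performed by the authors on 2 jejunal crypt libraries, aligned to mm10 with Cell Ranger 3.0.1 per the labels. The authors deposited whole-number UMI counts per gene and cell, and the mitochondrial percent of each cell. They stated that free RNA was removed with SoupX, without naming the tables, called doublets with scDblFinder, kept cells with at least 1500 genes and at most 25% mitochondrial reads, and named clusters in Seurat. Their annotations were joined by cell order to the count table of the whole study, where UMI totals matched in 3275 of 3275 cells. In the named matrices used here the total was equal in 1358 cells and within 1% in 3274. The deposited tables of the whole study hold 2937 cell columns of other samples, which were not used.

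UMIs of all cells of a type in a mouse were added up. CPM is UMIs per 1000000 UMIs of such a sum, is not divided by gene length and was compared within a gene. Its 95% intervals are exact Poisson intervals, and 0 UMIs were taken to allow up to 3 counts. The 18 epithelial sums passed through filterByExpr and TMM scaling and were tested in edgeR 4.0.16 (robust quasi-likelihood, cell type and mouse as terms, 8 residual degrees of freedom, two-sided, in R 4.3.3), with Benjamini-Hochberg adjustment over 11013 genes and a threshold of 0.05. The standard error is the log2 fold change over the square root of F. Fold changes per mouse used a prior count of 2. IEL entered no test. Sums of a mouse come from the same animal, and over 36 pairs of cell types their deviations from the type means correlated at r of 0.119 to 0.662 (median 0.313).

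Sensors, Xbp1, Atf4, Ddit3 and Hspa5 were always described, and for each comparison up to 6 genes higher and 6 lower with the largest change in the same direction in both mice. The genes, lists and comparisons were chosen with earlier results of these data known. Alternatives were RLE or no scaling factors, DESeq2 1.42.0, no filter on low counts, no mouse term, cells with at least 2000 genes and at most 10% mitochondrial reads, cells thinned to 5000 UMIs, lymphocytes included, Paneth cells left out, each mouse left out, and 20 leading genes left out of the denominator. Scripts were tested on simulated data. Coordinates are those of GRCm38 (mm10).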

Additional observations from a re-analysis of the deposited data

How the results depend on the processing

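With 2 mice, precision was limited by the number of animals. It was also limited by few UMIs in small sums, as for Ern1, Ern2, Eif2ak3, Derl3, Edem1 and Syvn1. Without the replicate block (the mouse term) the counts of higher and lower genes were 30 and 0 for goblet against enterocyte, 24 and 1 for Paneth against enterocyte, 3 and 5 for EEC, 2 and 14 for tuft, 23 and 0 for goblet against goblet progenitor, 7 and 8 for Paneth against goblet and 9 and 0 for enterocyte against TA. Of all genes 24.9%, 28.7%, 28.8%, 24.9%, 9.48%, 7.64% and 25.8% passed there, in that order and in either direction. With no scaling factors the higher and lower genes were 1 and 38 for Paneth against enterocyte (median -1.95), 0 and 43 for Paneth against goblet, 11 and 2 for EEC (median 0.42), 3 and 11 for tuft and 13 and 1 for enterocyte against TA. Of all genes 87.4%, 86.4%, 45.3%, 42.4% and 53.9% passed there, in that order and in either direction. With cells thinned to 5000 UMIs the higher genes were 17 for Paneth against enterocyte, 1 for Paneth against goblet and 20 for enterocyte against TA, and 0 were lower for goblet against enterocyte. Of all genes 19.7%, 9.62%, 47.0% and 40.3% passed there, in that order and in either direction. The median over all genes was -0.725 for Paneth against enterocyte and -0.739 for Paneth against goblet. With no filter on low counts 20 were higher and 1 lower for enterocyte against TA, and 1 was lower there with Paneth cells left out. The lower count of goblet against enterocyte was 1 with DESeq2, with no filter, with the stricter cell filter, with lymphocytes included and with Paneth cells left out (40.5%, 28.6%, 37.0%, 40.1% and 46.0% of all genes passed). That of Paneth against enterocyte was 1 with RLE factors, with DESeq2, with no replicate block and with lymphocytes included (39.4%, 38.5%, 28.7% and 36.9% of all genes passed).

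With no scaling factors the log2 fold changes of Paneth against enterocyte turned to -0.36 for Edem1, -0.68 for Dnajc3, -1.61 for Ern1, -1.47 for Eif2ak3, -2.09 for Atf6, -1.63 for Xbp1, -1.66 for Atf4, -2.87 for Ddit3 and -2.73 for Hspa5. Those of Paneth against goblet turned to -1.37 for Edem1, -1.36 for Ern1, -1.47 for Edem2, -1.49 for Spcs3, -1.60 for P4hb, -1.72 for Sel1l, -2.30 for Atf6, -2.52 for Atf4 and -2.77 for Ddit3. The median of Paneth against goblet was 0.0005 with RLE factors, and P4hb of goblet against enterocyte was 0.14 with the stricter cell filter. With the 20 leading genes left out of the denominator the mean share of the 44 genes was 0.709% in stem, 0.851% in TA, 1.08% in enterocyte, 1.47% in goblet progenitor, 2.70% in goblet, 1.06% in secretory progenitor, 2.10% in Paneth, 1.19% in EEC, 0.823% in tuft and 1.04% in IEL sums. Under the stricter cell filter it was 0.915% in enterocytes and 1.22% in goblet progenitors, and in IEL it was 0.738% without the cell with most plasma cell marker UMIs, an alternative chosen after the data were seen. The cause was not tested in any of these. With 1 mouse left out the medians ran from 1.28 to 1.29 for goblet against enterocyte, 0.91 to 1.21 for Paneth against enterocyte, -0.17 to -0.08 for EEC, -0.68 to -0.53 for tuft, 0.93 to 1.26 for goblet against goblet progenitor, -0.12 to -0.06 for Paneth against goblet and 0.61 to 0.64 for enterocyte against TA, with no test. Of 1103 values of the genes described, 1009 counted as the same, 64 lost their call, 11 gained one and 19 reversed. A value that passed in neither fit counted as the same whatever its direction. With 1 mouse left out there was no test, and a value counted as the same unless it reversed a call of the main fit.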
